A study of Mus musculus with 6 samples.

Results

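The Siglec receptors of the mouse were followed over 3 sorted populations of bone marrow cells grown in culture. The family members described are Siglece, Siglec1, Cd33, Cd22, Siglecg, Siglecf and Siglech, taken by name, as the probe sets of the array that the annotation ties to 1 of these genes alone. Each of the 7 had a single such probe set, and they stand among 19938 genes measured on the array. RNA of 6 samples, 300 ng of total RNA each, was hybridised to 1 Affymetrix array per sample, with 2 arrays for each population. The marrow donors of all 3 populations were C57BL/6J mice of 6 to 10 weeks, male by the labels, and the cultures ran for 7 days. GM-BMDC and GM-BMM grew in 25 ng/ml of GM-CSF and were parted by the sort, GM-BMDC, called dendritic cells, as MHCIIhighF4/80low and GM-BMM, called macrophages, as MHCIIlowF4/80high. M-BMM grew in 20% L cell conditioned medium, which supplied M-CSF, and were sorted as CD11b+F4/80+. The arrays are labelled as biological replicates, with no statement of how many animals or cultures they stand for. The p-values therefore reflect only variation among these arrays, which may be technical in part or, for M-BMM, in whole. The 2 arrays of each GM-CSF population differed in sex-linked RNA, as given below.

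Siglecs are cell-surface lectins of the immunoglobulin family that bind sialic acid, the sugar that caps many glycans of vertebrate cells. Most carry inhibitory tyrosine motifs in their tails, which recruit the phosphatases encoded by Ptpn6 and Ptpn11 and restrain activating receptors on the same cell. Siglec1 has no such motif and works in adhesion and in the capture of sialylated particles by macrophages, while Siglech signals through the adaptor encoded by Tyrobp. In the mouse, Siglece and Cd33 are known from myeloid cells, Siglecf from eosinophils and lung alveolar macrophages, Cd22 and Siglecg from B cells, and Siglech from plasmacytoid dendritic cells.

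RefSeq start sites were matched for 6 of the 7 members, leaving Siglec1, and the 250 bases before each start were read on the gene's own strand from build GRCm38.p6. All 6 lie on chromosome 7. A PU box (GAGGAA, searched on both strands) is the kind of element bound by the myeloid transcription factor encoded by Spi1. It was present upstream of 4 of the 6 genes, for Siglecg at only 1 of 2 annotated starts. Of 32851 mouse windows of the same length, each counted singly, 23.3% held it. The 4 are shown because they include Siglece, the member with the largest difference in the data, and the pair of genes that were higher in GM-BMDC. Capitals mark the PU box, written TTCCTC where it lies on the other strand. Siglece lies on the minus strand (chr7:43660162-43660411), Siglecf on the plus strand (chr7:43351091-43351340), Siglecg on the plus strand (chr7:43407989-43408238) and Cd33 on the minus strand (chr7:43533172-43533421).
Siglece: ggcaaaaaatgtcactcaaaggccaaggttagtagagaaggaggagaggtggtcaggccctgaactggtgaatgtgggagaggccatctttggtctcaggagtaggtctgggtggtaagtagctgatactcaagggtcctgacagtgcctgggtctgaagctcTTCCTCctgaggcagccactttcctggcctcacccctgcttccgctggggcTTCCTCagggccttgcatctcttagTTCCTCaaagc
Siglecf: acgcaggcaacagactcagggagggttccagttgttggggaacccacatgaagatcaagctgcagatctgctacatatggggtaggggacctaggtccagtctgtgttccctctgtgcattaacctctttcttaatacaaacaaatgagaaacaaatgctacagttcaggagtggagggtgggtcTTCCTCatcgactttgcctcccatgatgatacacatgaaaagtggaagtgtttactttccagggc
Siglecg: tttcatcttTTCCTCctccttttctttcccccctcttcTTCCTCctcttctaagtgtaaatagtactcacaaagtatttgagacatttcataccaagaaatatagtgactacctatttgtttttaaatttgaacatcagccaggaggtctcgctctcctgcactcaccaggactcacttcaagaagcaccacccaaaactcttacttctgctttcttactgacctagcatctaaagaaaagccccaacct
Cd33: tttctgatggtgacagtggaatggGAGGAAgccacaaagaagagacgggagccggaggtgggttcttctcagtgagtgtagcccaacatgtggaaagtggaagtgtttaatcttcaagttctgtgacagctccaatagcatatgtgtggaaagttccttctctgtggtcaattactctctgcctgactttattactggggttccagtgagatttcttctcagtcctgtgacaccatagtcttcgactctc
Siglece held 3 PU boxes, at 87, 36 and 11 bases before its start, Siglecg 2, at 241 and 212 bases, Siglecf 1, at 65 bases, and Cd33 1, at 226 bases. Siglecg has a second annotated start, whose window (chr7:43408030-43408279) held none of the motifs searched. Siglech (chr7:55767934-55768183, plus strand) had no PU box but a GAS element (TTCNNNGAA) at 123 bases and a C/EBP element (TTGCNNAA) at 169 bases, which occur in 7.02% and 9.56% of all windows. Cd22 (chr7:30879029-30879278, minus strand) had none of these. The interferon-response element (GAAA, any 2 bases, GAAA; in 2.98% of all windows) and the AP-1 element (TGANTCA, in 6.75%) were in none of the windows of the 6 genes. None of the motifs printed overlaps another in these windows. Siglecf and Cd33 share an exact run of 16 bases, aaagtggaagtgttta, which begins 27 bases before the start of Siglecf and 157 bases before that of Cd33. It occurs in 2 of the 32851 windows, those of these genes, and the longest run shared by any other of the 15 pairs of members is 10 bases. A match describes the letters only, and no binding was measured here.

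Each level is an RMA log2 signal, on which a step of 1 is a doubling, and replicate 1 is given before replicate 2. Signals of different probe sets cannot be ranked against each other, so each gene is compared with itself across populations. Array medians lay between 6.18 and 6.28. Background is not marked, and a value is called low when it falls below 5.04, the 25th percentile of the whole table. No member was low on any array.

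The labels were checked before the members. H2-Ab1, of the MHC class II gate, stood at 13.09 and 13.17 in GM-BMDC, 10.08 and 11.27 in GM-BMM, and 5.81 and 6.35 in M-BMM. Adgre1, which encodes F4/80, was at 9.39 and 10.91, at 12.32 and 12.61, and at 12.73 and 12.79, and Itgam, which encodes CD11b, at 9.67 and 10.75, at 11.81 and 11.77, and at 11.86 and 11.84. The gate genes thus ran in the order of the sort, with the GM-BMDC arrays apart by more than 1 step in Adgre1 and Itgam. Xist, expressed from the silenced X chromosome of female cells, was at 11.66 and 10.68 in GM-BMDC, at 11.58 and 4.93 in GM-BMM, and at 4.53 and 4.80 in M-BMM. The Y-linked gene Eif2s3y was at 3.94 and 8.80, at 3.66 and 9.10, and at 9.32 and 9.17. Replicate 1 of both GM-CSF populations therefore went against the male label, and GM-BMDC replicate 2 carried both kinds of RNA. Values without both GM-CSF arrays numbered 1, which leave 1 array in each GM-CSF population, are given below where they bear on a member. The spread in such a fit comes from the M-BMM arrays alone and does not measure that within GM-BMDC or GM-BMM. A fit without a single array likewise takes no account of spread within the population left with 1 array. Leaving out an array of the population outside a comparison keeps the difference as it was and changes only the estimate of its spread. Counts from fits without a single array are given without a share over all genes. Whether a change in such a count is particular to the genes listed was not tested.

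Siglece and Siglec1 were far lower in GM-BMDC than in either macrophage population, Siglecg and Siglecf were somewhat higher, and Siglech was flat. Of the 7 members, 2 were higher and 2 lower in GM-BMDC than in GM-BMM, where limma called 4.69% of all genes higher and 5.74% lower after Benjamini-Hochberg adjustment at 0.05. Against M-BMM, 2 were higher and 2 lower, beside 7.76% and 8.90% of all genes. Between GM-BMM and M-BMM limma called 0 higher and 0 lower, beside 3.62% and 2.57% of all genes. Siglece and Siglec1 had an unadjusted limma p under 0.05 there (0.04802 and 0.01943), a threshold for which no share over all genes was counted. Without both GM-CSF arrays numbered 1, GM-BMDC differed from GM-BMM by -4.73 for Siglece and Siglec1, 1.02 for Siglecg and 1.11 for Siglecf. In that fit Cd22 differed by -1.06, Cd33 by -0.36 and Siglech by 0.26. Single arrays that change a member's call are named with it. The 3 comparisons share arrays pairwise, so their values are set side by side and are not separate evidence. In bulk RNA, fewer cells of a type and less RNA per cell cannot be told apart.

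**Figure D1:**
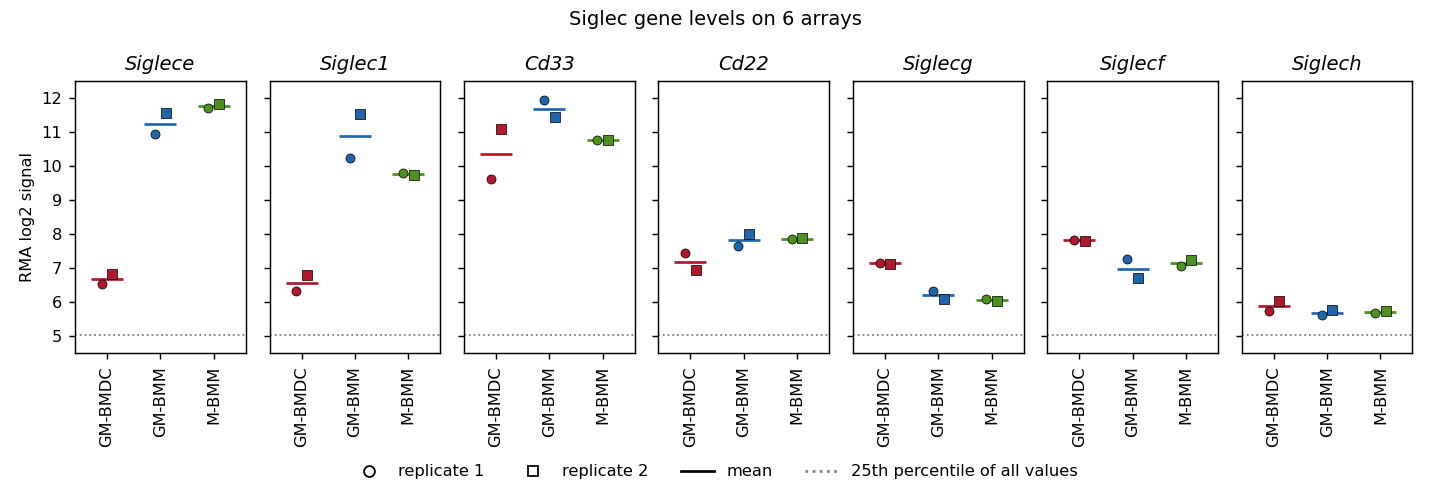
Levels of the 7 Siglec genes (RMA log2 signal) on each array of the 3 populations, with circles for replicate 1, squares for replicate 2, bars for the means and a dotted line at 5.04, the 25th percentile of all values. Both GM-BMDC arrays lie below 7 for Siglece and Siglec1, where all 4 macrophage arrays lie above 9, and the replicates of Cd33 in GM-BMDC lie 9.63 to 11.08.

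**Figure D2:**
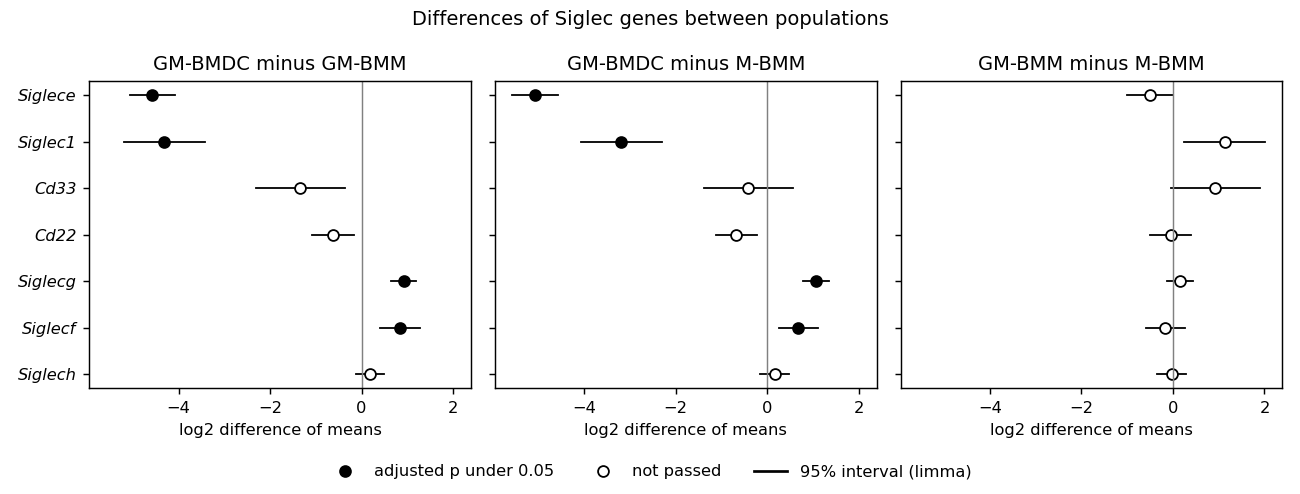
Differences of group means (log2) for the 7 members in the 3 comparisons, with limma 95% intervals and filled points where the adjusted p was under 0.05. Filled points stand at Siglece, Siglec1, Siglecg and Siglecf in both comparisons with GM-BMDC, and no point is filled between GM-BMM and M-BMM.

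Siglece, an inhibitory receptor of neutrophils, monocytes and macrophages, showed the widest separation. It measured 6.52 and 6.84 in GM-BMDC, 10.94 and 11.56 in GM-BMM, and 11.69 and 11.82 in M-BMM. Every macrophage array exceeded every GM-BMDC array, and the GM-BMM arrays lay below both M-BMM arrays. GM-BMDC were 23.7-fold lower than GM-BMM (log2 difference -4.57 ± 0.21, SE, n = 2 arrays in each population, limma adjusted p = 5.591e-05). Against M-BMM they were 33.7-fold lower (-5.07 ± 0.21, limma adjusted p = 2.137e-05). Both calls held under all 19 alternatives to the fit, with log2 differences from -4.88 to -4.26 and from -5.23 to -4.78. They were -4.73 and -4.92 once both GM-CSF arrays numbered 1 were left out. Between GM-BMM and M-BMM the difference of -0.50 ± 0.21 did not pass (limma adjusted p = 0.2536). It passed when GM-BMM replicate 2 was left out (-0.82, adjusted p = 0.04469) and was -0.19 (0.7254) when GM-BMM replicate 1 was.

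Siglec1, also called CD169 or sialoadhesin, an adhesion receptor of tissue macrophages, followed the same division with a different order among macrophages. It stood at 6.33 and 6.81 in GM-BMDC, at 10.24 and 11.54 in GM-BMM, and at 9.80 and 9.72 in M-BMM. The highest 2 arrays were those of GM-BMM, and the populations did not overlap. The level in GM-BMDC was 19.9-fold below GM-BMM (-4.32 ± 0.38, limma adjusted p = 0.0007001) and 9.11-fold below M-BMM (-3.19 ± 0.38, limma adjusted p = 0.00148). Both calls held under the 19 alternatives. The difference from GM-BMM depended in size on the GM-BMM arrays, at -4.97 without replicate 1 and -3.66 without replicate 2. The macrophage populations differed by 1.13 ± 0.38, which did not pass (limma adjusted p = 0.1516). That difference passed without GM-BMM replicate 1 (1.78) and with Y-linked RNA, averaged from 3 genes, as a covariate (1.68, limma adjusted p = 0.005928). It was 1.78 without both GM-CSF arrays numbered 1 and 0.47 without GM-BMM replicate 2.

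Siglec1 is known as an interferon-induced gene, and the type I interferon response genes lay lower in GM-BMDC with it. Of 25 measured genes of that response, 0 were higher and 21 lower in GM-BMDC than in GM-BMM (median log2 difference -1.74, against 0.02 over all genes). Against M-BMM, 0 were higher and 19 lower (median -1.21, against -0.00), and 11 were lower without M-BMM replicate 1. Between GM-BMM and M-BMM 2 were higher and 0 lower (median 0.20, against -0.02). Leaving out GM-BMM replicate 1 raised the count of higher genes there to 5, leaving out either M-BMM array took it to 0, and leaving out any other array to 1. Without GM-BMM replicate 2, 1 gene passed in place of 0 in each comparison, as did 1 higher gene against M-BMM without GM-BMM replicate 1. Relative to each gene's mean over the 6 arrays, Siglec1 lay at -2.74 and -2.26 in GM-BMDC, 1.16 and 2.47 in GM-BMM, and 0.72 and 0.65 in M-BMM. The median of the 25 genes on the same scale was -0.96 and -0.93, 0.34 and 1.05, and 0.36 and 0.25. Both were highest on GM-BMM replicate 2. Without both GM-CSF arrays numbered 1, 11 of the 25 were higher in GM-BMM than in M-BMM. The part of the interferon response in the level of Siglec1 was not tested.

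**Figure D3:**
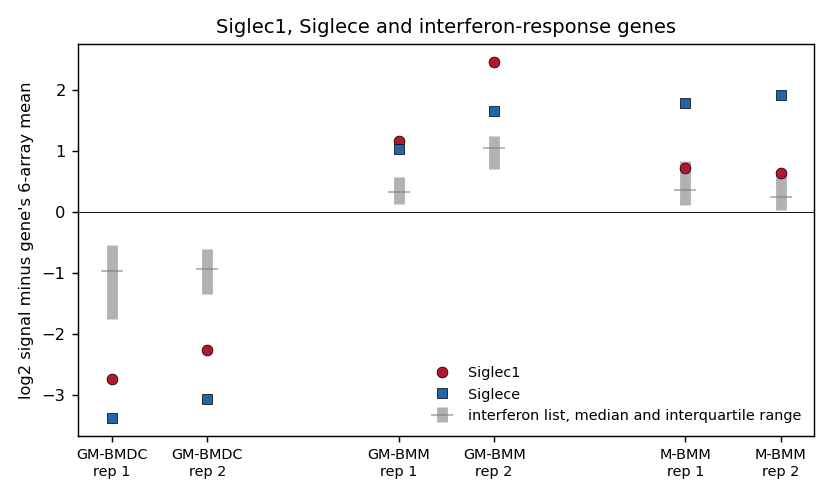
Levels of Siglec1 (circles) and Siglece (squares) on each array as log2 signal minus the gene's own mean over the 6 arrays, beside the median (grey tick) and the interquartile range (grey bar) of 25 interferon-response genes. All 3 are below 0 on both GM-BMDC arrays, and Siglec1 peaks at 2.47 on GM-BMM replicate 2, where the interferon median is 1.05.

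Of 11 macrophage marker genes, 0 were higher and 4 lower in GM-BMDC in each comparison with a macrophage population (medians -0.78 and -0.74, against 0.02 and -0.00 over all genes). The 4 were Adgre1, Fcgr1, Maf and Cd68, and the other 7, among them C1qa at 9.06 and 10.06 in GM-BMDC, 8.79 and 9.90 in GM-BMM and 10.28 and 10.64 in M-BMM, did not pass. Against M-BMM the lower count was 2 without GM-BMDC replicate 1, 7 without GM-BMDC replicate 2 and 1 without either M-BMM array. Their summed linear signal ranged from 12040 to 20140 in GM-BMDC, from 25370 to 30310 in GM-BMM and from 31680 to 31960 in M-BMM, and none of them was low on every array. Neutrophil genes, 12 measured, summed to 1825 to 3037, 5122 to 9892 and 2533 to 2896, with Cxcr2 low on every array. Mmp8 alone stood at 12.91 and 11.78 in GM-BMM, and without it the other 11 summed to 846.7 to 929.7, 1613 to 2176 and 2239 to 2467. Most of that sum in M-BMM came from Csf3r, at 10.61 and 10.50. Csf3r stood at 6.01 and 7.37 in GM-BMDC and at 9.52 and 9.86 in GM-BMM. The order of the sums thus turned on single bright genes. Of the 12, 2 were lower in GM-BMDC than in GM-BMM. That count was 6 without GM-BMM replicate 2 and 1 without GM-BMM replicate 1, GM-BMDC replicate 1 or either M-BMM array. The part of either cell type in the Siglece and Siglec1 differences was not tested.

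Cd33, known from myeloid cells, was the member with the widest spread between replicates. It measured 9.63 and 11.08 in GM-BMDC, 11.95 and 11.44 in GM-BMM, and 10.75 and 10.78 in M-BMM. GM-BMM lay above both other populations on both arrays, whereas the GM-BMDC arrays fell on either side of M-BMM. The difference of GM-BMDC from GM-BMM was -1.34 ± 0.42 (95% interval -2.31 to -0.37, limma adjusted p = 0.09394), that from M-BMM -0.41 ± 0.42 (-1.39 to 0.56, 0.6105), and that of GM-BMM from M-BMM 0.93 ± 0.42 (-0.05 to 1.90, 0.2885). None passed, and each turned on single GM-BMDC arrays. Without GM-BMDC replicate 2 the first 2 differences were -2.07 (adjusted p = 0.002652) and -1.14 (0.01823), and without replicate 1 they were -0.61 (0.2118) and 0.31 (0.4996). Leaving out either GM-BMDC array, which removes their spread from the fit, brought GM-BMM above M-BMM with the same difference of 0.93 (0.03394). That difference was 0.67 without both GM-CSF arrays numbered 1 and 1.18 without both numbered 2. The GM-BMDC arrays differed likewise in Adgre1 and Itgam, with the lower values on replicate 1, as for Cd33. Whether the sort composition takes part in this spread was not tested.

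Of Cd22 and Siglecg, the pair of B-cell inhibitory receptors, only Siglecg was called, and the mean difference of Cd22 had the other sign. Siglecg measured 7.15 and 7.13 in GM-BMDC, 6.33 and 6.11 in GM-BMM, and 6.10 and 6.03 in M-BMM. All arrays of GM-BMDC lay above all others, with the closest replicates of any population for this gene. It was 1.89-fold higher than in GM-BMM (0.92 ± 0.12, limma adjusted p = 0.003791) and 2.10-fold higher than in M-BMM (1.07 ± 0.12, limma adjusted p = 0.001142). Both calls held in 18 of the 19 alternatives and were lost only when a change of more than 1.5-fold had to be shown (adjusted p = 0.3191 and 0.05027). Without both GM-CSF arrays numbered 1 the differences were 1.02 and 1.06. GM-BMM and M-BMM differed by 0.15 ± 0.12 (95% interval -0.13 to 0.44, limma adjusted p = 0.5862).

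Cd22 lay at 7.46 and 6.94 in GM-BMDC, at 7.64 and 7.99 in GM-BMM, and at 7.85 and 7.89 in M-BMM. Both GM-BMDC arrays were below all 4 macrophage arrays. The differences of -0.62 ± 0.19 from GM-BMM (limma adjusted p = 0.09557) and -0.68 ± 0.19 from M-BMM (0.05512) missed the threshold. They passed without GM-BMDC replicate 1 (-0.88 and -0.94), and were -1.06 and -0.94 without both GM-CSF arrays numbered 1. The difference from M-BMM passed also without either GM-BMM array, where it stayed at -0.68. Over the 19 alternatives, Cd22 was called in 7 against M-BMM and in 2 against GM-BMM. Without GM-BMDC replicate 2 the values were -0.36 (0.2966) and -0.42 (0.1989). GM-BMM and M-BMM were -0.05 ± 0.19 apart (95% interval -0.51 to 0.40).

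Some B lymphocyte markers were higher in GM-BMDC. Of 11 measured, 4 were higher and 0 lower than in GM-BMM, namely Cd79a, Ms4a1, Ebf1 and Fcrla, and 3 were higher and 1 lower than in M-BMM. Without GM-BMDC replicate 2 the higher counts were 7 and 6. Cd79a, a chain of the B-cell receptor, stood at 7.15 and 6.23 in GM-BMDC, at 3.99 and 4.49 in GM-BMM, and at 4.73 and 4.49 in M-BMM. Its partner Cd79b was highest in M-BMM, at 10.16 and 10.21, against 8.49 and 7.32 in GM-BMDC and 7.69 and 7.95 in GM-BMM. The summed linear signal of the 11 genes was 1193 to 1816 in GM-BMDC, 1042 to 1530 in GM-BMM and 2231 to 2340 in M-BMM. Without Cd79b and Blnk, which make up most of it in M-BMM, the other 9 summed to 510 to 741, 328 to 341 and 340 to 378. The median difference of the 11 was 0.63 against GM-BMM and 0.58 against M-BMM, beside 0.02 and -0.00 over all genes. The part of B cells in the level of Siglecg or Cd22 was not tested.

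Siglecf, which on eosinophils restrains their number and which alveolar macrophages carry as a marker, was higher in GM-BMDC by a small margin. It measured 7.84 and 7.81 in GM-BMDC, 7.26 and 6.70 in GM-BMM, and 7.06 and 7.23 in M-BMM. Both GM-BMDC arrays were above the other 4, and the macrophage populations overlapped. The gene was 1.80-fold higher than in GM-BMM (0.84 ± 0.19, limma adjusted p = 0.02932) and 1.60-fold higher than in M-BMM (0.68 ± 0.19, limma adjusted p = 0.04538). These calls held in 10 and 11 of the 19 alternatives. The first was lost without GM-BMDC replicate 1 (0.83), GM-BMDC replicate 2 (0.86) or GM-BMM replicate 2 (0.56). It was lost also without either M-BMM array, where the difference stayed at 0.84 and only the estimate of its spread changed. The second was lost without either GM-BMDC or either M-BMM array, and with the replicate number as a block (0.05282). GM-BMM and M-BMM differed by -0.16 ± 0.19 (95% interval -0.60 to 0.27, limma adjusted p = 0.7385).

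Eosinophil genes, 9 measured, summed to a linear signal of 604.5 to 733.4 in GM-BMDC, 529 to 992.8 in GM-BMM and 436.3 to 489.2 in M-BMM. Il5ra, the receptor chain that defines the lineage's response to interleukin 5, was low on every array, and 1 of the 9 was higher and 0 lower in GM-BMDC in each comparison. Against GM-BMM that call was lost without GM-BMDC replicate 2, GM-BMM replicate 2, which also gave 1 lower gene, or either M-BMM array. Against M-BMM 0 were higher without GM-BMDC replicate 2 or either M-BMM array and 4 without either GM-BMM array. The 13 alveolar macrophage genes summed to 15300 to 16660, 9652 to 15540 and 3343 to 3609, with Fabp1 low on every array. Of them, 1 was higher and 4 lower in GM-BMDC than in GM-BMM, 6 were higher and 1 lower in GM-BMDC than in M-BMM, and 6 were higher and 0 lower in GM-BMM than in M-BMM (medians -0.19, 0.58 and 2.14). In the first comparison the 1 became 3 without GM-BMM replicate 1 and 2 without GM-BMM replicate 2, and leaving out that array gave 1 lower gene between the macrophages. Their part in the level of Siglecf was not tested.

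Siglech, a surface marker of plasmacytoid dendritic cells, measured 5.73 and 6.02 in GM-BMDC, 5.62 and 5.76 in GM-BMM, and 5.69 and 5.74 in M-BMM. The 3 populations overlapped, all below the array medians. The differences were 0.19 ± 0.13 (95% interval -0.13 to 0.50), 0.16 ± 0.13 (-0.16 to 0.48) and, between GM-BMM and M-BMM, -0.03 ± 0.13 (-0.34 to 0.29), and none passed (limma adjusted p = 0.4974, 0.5265 and 0.9563). None of the 19 alternatives called it. Of 9 plasmacytoid dendritic cell genes, 3 were higher and 0 lower in GM-BMDC than in GM-BMM (Spib, Pacsin1 and Cd300c), and 3 were higher and 1 lower than in M-BMM (Spib, Pacsin1 and Lag3, and Cox6a2). Without M-BMM replicate 1, 1 was higher there. The 9 genes had medians of 0.52 and 0.47 in these comparisons, and their summed linear signal was 1550 to 2063, 1394 to 1616 and 1672 to 1819. Spib, a transcription factor gene that B cells also express, stood at 8.56 and 7.75 in GM-BMDC, 5.29 and 5.61 in GM-BMM, and 6.42 and 6.48 in M-BMM, and Ccr9, a homing receptor, between 4.48 and 5.27 on all 6 arrays. The part of these cells in the level of Siglech was not tested. The family members Siglec15, at 6.75 to 6.99, and Mag, at 6.34 to 7.23, which were measured beside the 7, were called in no comparison.

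Genes whose pattern over the 6 arrays came closest to that of a member were found for the 4 members whose group means spanned at least 1 log2 unit. Likeness was the root mean square distance between mean-centred log2 values. For Siglece, whose own root mean square deviation was 2.29, the nearest were Cp (0.40), the ceruloplasmin gene, Fcgr4 (0.54), an activating Fc receptor, and Lox (0.57), which cross-links collagen. Siglec1, with 1.87, had Adgb (0.28), Mmp9 (0.44), a gelatinase, and Ifi208 (0.46), a member of an interferon-inducible family. Siglecg, with 0.48, had Dexi (0.03), the histone variant gene H2az1 (0.04) and the TNF receptor family gene Relt (0.04). Cd33, with 0.72, had the amino acid transporter gene Slc36a1 (0.14), the prostaglandin receptor gene Ptger2 (0.22) and Tlr2 (0.22), a sensor of bacterial lipoproteins. A small distance for a gene that varies little, such as Siglecg, is reached by more genes than one for Siglece.

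Some signalling partners of the Siglecs differed between the populations. Ptpn6, which encodes the phosphatase SHP-1 that inhibitory Siglecs recruit, stood at 9.35 and 10.01 in GM-BMDC, 10.37 and 10.80 in GM-BMM, and 10.75 and 10.79 in M-BMM. It was 2.13-fold lower in GM-BMDC than in M-BMM (-1.09 ± 0.23, limma adjusted p = 0.0178), and its difference of -0.90 ± 0.23 from GM-BMM missed the threshold (0.0506). The call against M-BMM was lost without GM-BMDC replicate 1 (-0.76, adjusted p = 0.06501) or either M-BMM array (0.1188 and 0.1155). Against GM-BMM the gene passed without GM-BMM replicate 1 (-1.11) or GM-BMDC replicate 2 (-1.23), and with the replicate block (limma adjusted p = 0.01845). Its difference was -0.78 without both GM-CSF arrays numbered 1. Ptpn11, encoding SHP-2, and Tyrobp, the adaptor of Siglech, were called in no comparison, with log2 differences of GM-BMDC from GM-BMM of -0.27 ± 0.13 and -0.25 ± 0.13. Of 19 measured signalling genes, 2 were higher and 3 lower in GM-BMDC than in GM-BMM (median -0.40, against 0.02 over all genes), and 4 and 3 than in M-BMM (median -0.20, against -0.00). GM-BMM had 3 higher and 1 lower than M-BMM (median -0.03, against -0.02). The kinase gene Fyn was 7.95-fold higher in GM-BMDC than in GM-BMM (2.99 ± 0.17) and 4.44-fold lower in GM-BMM than in M-BMM (-2.15 ± 0.17), and the ubiquitin ligase gene Cblb was 3.92-fold higher in GM-BMDC than in GM-BMM (1.97 ± 0.24). Socs3, a feedback inhibitor of cytokine signalling known to bind the tails of some Siglecs, was 2.92-fold lower in GM-BMDC than in GM-BMM (-1.55 ± 0.14), and Cd14, the lipopolysaccharide co-receptor, 3.63-fold lower (-1.86 ± 0.19). Against GM-BMM the lower count was 5 with GM-BMM replicate 1 or GM-BMDC replicate 2 left out. Against M-BMM the higher count was 2 without either M-BMM array, and the lower count 1 without GM-BMDC replicate 1 or either M-BMM array and 5 without GM-BMDC replicate 2. Between the macrophages the higher count was 5 without GM-BMM replicate 2 and 1 without M-BMM replicate 2.

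Other inhibitory receptors of leukocytes, most of which carry inhibitory tyrosine motifs, were also counted. Of 18, 1 was higher and 6 lower than in GM-BMM (median -0.71, against 0.02 over all genes), and 3 were higher and 8 lower than in M-BMM (median -0.74, against -0.00). The collagen receptor gene Lair1 was 4.66-fold lower than in GM-BMM (-2.22 ± 0.28) and 6.59-fold lower than in M-BMM (-2.72 ± 0.28), and Pecam1, an adhesion receptor, 2.11-fold (-1.08 ± 0.13) and 6.25-fold lower (-2.64 ± 0.13). Cd300lf, a lipid-binding receptor, was 2.89-fold lower than in GM-BMM (-1.53 ± 0.16) and 1.61-fold higher than in M-BMM (0.69 ± 0.16), and Klra17 exceeded M-BMM by 2.77 ± 0.20 on the log2 scale. As Klra17 was low on both M-BMM arrays, at 4.56 and 4.54, no fold is given against that signal. The higher call of Cd300lf was lost without GM-BMDC replicate 2 (0.51) or either M-BMM array (0.78 and 0.60). Against M-BMM the lower count was 3 and the higher count 1 without either M-BMM array. Against GM-BMM 10 were lower once GM-BMDC replicate 2 was left out. The 1 higher gene, Klra17, was lost without GM-BMDC replicate 2 (0.76), GM-BMM replicate 2 (0.84) or either M-BMM array (1.03, unchanged).

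The glycans that Siglecs bind are built by sialyltransferases. Of 20 such genes, 8 were higher and 0 lower in GM-BMDC than in GM-BMM, beside 4.69% and 5.74% of all genes. Their median difference was 0.14, against 0.02 over all genes. Against M-BMM 9 were higher and 2 lower, beside 7.76% and 8.90% of all genes (median 0.17, against -0.00). St6gal1, which makes the linkage that Cd22 binds, stood at 9.16 and 9.25 in GM-BMDC, 7.54 and 6.74 in GM-BMM, and 7.20 and 7.09 in M-BMM, with no overlap between GM-BMDC and the others. It was 4.17-fold higher than in GM-BMM (2.06 ± 0.24, limma adjusted p = 0.002137) and 4.16-fold higher than in M-BMM (2.06 ± 0.24, 0.001271). St8sia4, a polysialyltransferase gene, was 8.68-fold higher in GM-BMDC than in M-BMM (3.12 ± 0.26), St8sia6 3.18-fold higher than in GM-BMM (1.67 ± 0.21), and St3gal1 3.02-fold higher than in M-BMM (1.59 ± 0.19). The count of 8 fell to 4 without GM-BMDC replicate 1 or either M-BMM array and to 5 without GM-BMM replicate 1, which also brought the count of lower genes to 2. The count of 2 lower against M-BMM fell to 1 without GM-BMDC replicate 2 or either M-BMM array. Between GM-BMM and M-BMM 3 were higher and 1 lower, beside 3.62% and 2.57% of all genes. These calls were lost without either M-BMM array. Without M-BMM replicate 1 and without replicate 2, St8sia4 differed by 2.06 and 1.91, and St3gal1 by 1.05 and 1.18. The lower call was absent without GM-BMM replicate 1, and 2 were lower without GM-BMM replicate 2.

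**Figure D4:**
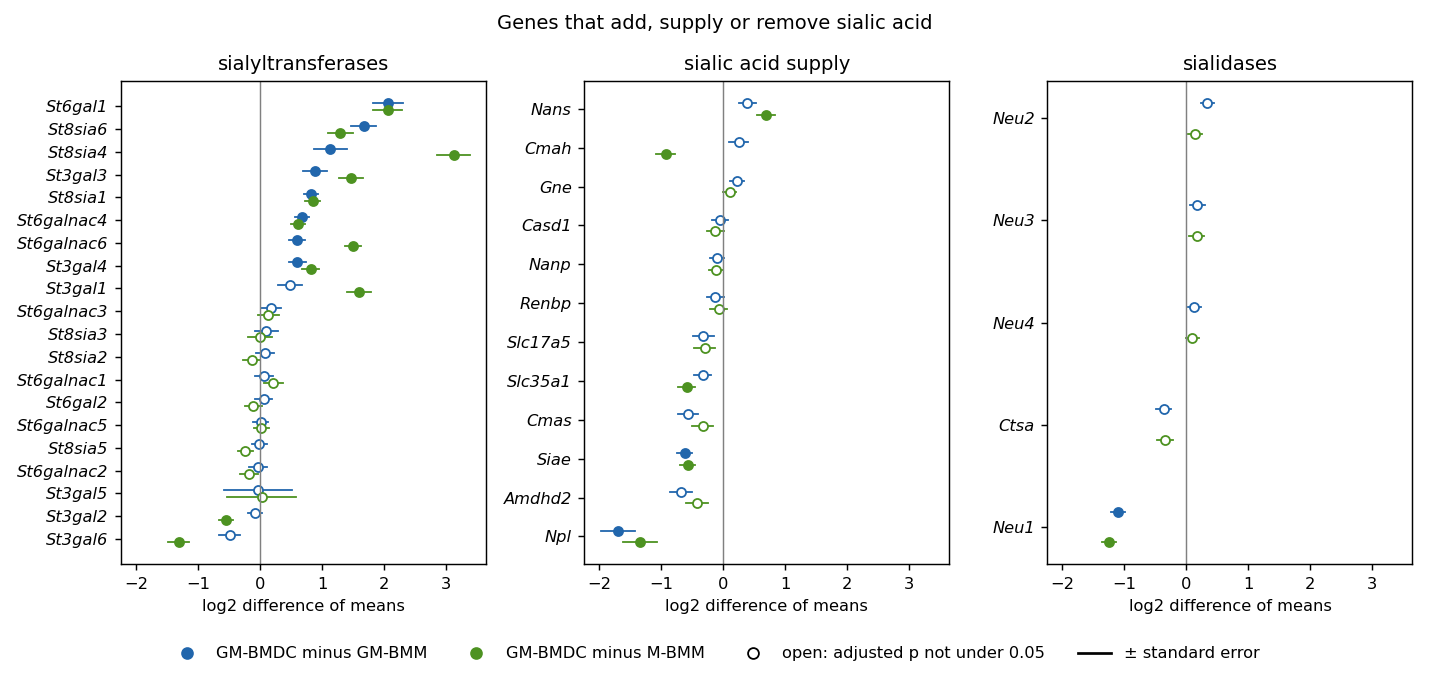
Log2 differences of GM-BMDC from GM-BMM (blue) and from M-BMM (green), with standard errors and filled points where limma's adjusted p was under 0.05. Shown are 20 sialyltransferases, 12 genes of sialic acid supply and turnover, and the 5 genes of the sialidase list, Neu1 to Neu4 and Ctsa. St6gal1 stands at 2.06 in both comparisons, and Neu1 at -1.10 and -1.25.

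Neu1, the lysosomal sialidase that removes sialic acid, was lower in GM-BMDC, with 7.56 and 7.73 against 8.71 and 8.79 in GM-BMM and 8.88 and 8.91 in M-BMM. The differences were -1.10 ± 0.11 (2.15-fold, limma adjusted p = 0.001386) and -1.25 ± 0.11 (2.38-fold, 0.0005079), and the other 4 genes of the sialidase list were called in no comparison. Of 12 genes that make, activate or break down sialic acid, 0 were higher and 2 lower in GM-BMDC than in GM-BMM (median -0.23, against 0.02), and 1 was higher and 4 lower than in M-BMM (median -0.32, against -0.00). Npl, the lyase that cleaves sialic acid, was 3.25-fold lower than in GM-BMM (-1.70 ± 0.27), Siae, which removes acetyl groups that block Cd22 binding, 1.54-fold lower (-0.62 ± 0.12), and Nans, a sialic acid synthase, 1.61-fold higher than in M-BMM (0.69 ± 0.14). Cmah, whose product makes the glycolyl form that mouse Cd22 prefers, was highest in M-BMM, 1.90-fold below it in GM-BMDC (-0.93 ± 0.15) and 2.26-fold in GM-BMM (-1.18 ± 0.15). Single arrays changed these supply counts. Siae itself was not called against GM-BMM with GM-BMDC replicate 1 (-0.52), GM-BMM replicate 1 (-0.54) or either M-BMM array (-0.62, unchanged) left out. Against GM-BMM 1 was lower when either array numbered 1 of the GM-CSF cultures or either M-BMM array was left out, and 4 without GM-BMDC replicate 2. Against M-BMM 2 were lower without GM-BMDC replicate 1, 0 without M-BMM replicate 1 and 1 without M-BMM replicate 2, and the higher call was lost without GM-BMDC replicate 1 or either M-BMM array. The call of Cmah in both comparisons was lost without M-BMM replicate 1.

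Among 12 proteins that can carry Siglec ligands, Cd24a, whose product binds Siglecg, stood at 11.74 and 12.07 in GM-BMDC, 10.98 and 9.46 in GM-BMM, and 6.81 and 6.53 in M-BMM. It was 37.7-fold higher in GM-BMDC than in M-BMM (5.23 ± 0.43, limma adjusted p = 0.0003079) and 3.21-fold higher than in GM-BMM (1.68 ± 0.43, 0.0492). The second call was lost without either GM-BMDC array (1.84 and 1.52) or either M-BMM array, where the difference stayed at 1.68. GM-BMM stood 11.7-fold above M-BMM (3.55 ± 0.43). The difference was 3.69 without M-BMM replicate 1 and 3.41 without M-BMM replicate 2, though the call was lost in both fits. Of the 12, 1 was higher and 1 lower in GM-BMDC than in GM-BMM, and 2 and 1 than in M-BMM. Against GM-BMM 2 were higher without GM-BMM replicate 1, and 2 lower with that array or GM-BMDC replicate 2 left out. Against M-BMM 0 were lower without either M-BMM array. Lgals3bp was the lower one in both, at -1.33 ± 0.12 and -0.66 ± 0.12, and Selplg the other higher than in M-BMM, at 0.67 ± 0.11. Against M-BMM, Lgals3bp was no longer called without either M-BMM array (-0.69 and -0.63) and Selplg without M-BMM replicate 2 (0.63). Emb was 3.07-fold higher in GM-BMM than in M-BMM (1.62 ± 0.33, limma adjusted p = 0.03198), with 3 carriers higher and 0 lower there, and no higher call was left without either M-BMM array. Without GM-BMM replicate 1, Emb differed by 1.36 and was not called (limma adjusted p = 0.1393).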

How the data were processed

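Sorted GM-BMDC, GM-BMM and M-BMM were measured with 2 Affymetrix arrays each. The deposited log2 values were made by the authors with Affymetrix Expression Console 1.1 and RMA, per the submitters' processing notes; the background correction could not be varied, and the build behind the probe annotation is not given in the sources used here. Of 35556 probe sets, 21789 had 1 gene, 1621 several and 12146 none, and a gene was represented by its probe set of highest mean level, which left 19938 genes. With limma 3.58.1 in R 4.3.3, all 6 arrays were fitted together, with 3 residual and 4.34 prior degrees of freedom, two-sided tests, Benjamini-Hochberg adjustment over all genes at 0.05, no pseudocount and no filter. Tables and figures used Python 3.11.15, and the fit was checked on simulated data. Arrays have no read depth, and their number limits the precision, with a median standard error of 0.132. A lone array left in a population by an alternative is taken to vary as the other populations do.

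The members and gene lists were chosen with earlier results of these data known. The text names all members, up to 4 genes of each pathway list with the largest difference past the threshold, the 3 genes most like a member, and genes of the gates and of sex. Ptpn6, Ptpn11, Tyrobp and the single cell-type markers were named after their values were seen. Of 19 alternatives to the fit, 18 were planned and 1, the crossed pairing, was chosen after seeing the data. The main fit did not treat same-numbered arrays as pairs. Deviations of same-numbered arrays correlated at 0.024, 0.026 and -0.132 across genes, which cannot show whether they share a donor or culture. Both GM-CSF arrays numbered 1 had high Xist and low Eif2s3y.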

Additional observations from a re-analysis of the deposited data

How the results depend on the processing

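Siglece and Siglec1 were lower in GM-BMDC in both comparisons under all 19 alternatives, and the counts of lower members were 2 or 3. In GM-BMDC against GM-BMM the main fit called 2 members higher, beside 935 of all 19938 genes. They became 1 with only the 2 groups compared, beside 549, and 1 with every probe set tested, beside 460. With a 1.5-fold minimum they became 0, beside 248. Without both GM-CSF arrays numbered 2 the differences were 0.58 for Siglecf and 0.82 for Siglecg. Against M-BMM the main fit called 2 higher, beside 1548 of all genes. They became 1 with the replicate block (1457 of all genes), every probe set (1009) or the Y-linked covariate (1085). With the 1.5-fold minimum they became 0, beside 520. Leaving out single arrays gave 1 to 2 in both. Between GM-BMM and M-BMM the 0 higher became 1 with only the 2 groups compared, beside 804 of all 19938 genes, and 1 with the covariate, beside 597. Fits without both GM-CSF arrays of a number also called members there, but leave 1 array in each GM-CSF population. Some fits without a single array called members there too, in both directions. Some differences that were not called changed sign. In GM-BMM against M-BMM, leaving out single arrays gave log2 ranges of -0.45 to 0.12 for Siglecf, -0.096 to 0.044 for Siglech, -0.23 to 0.12 for Cd22, -0.039 to 0.13 for Siae, -0.40 to 0.40 for St6gal1, -0.40 to 0.026 for Ptpn6, -0.054 to 0.25 for Ptpn11 and -0.091 to 0.023 for Tyrobp. Without both arrays numbered 1 the values were 0.044 for Siglech, 0.12 for Cd22, -0.039 for Siae and 0.026 for Ptpn6. Without both numbered 2 they were 0.12 for Siglecf, 0.40 for St6gal1, -0.054 for Ptpn11 and 0.023 for Tyrobp. The covariate gave 0.099 for Siglech and 0.13 for Ptpn6. In GM-BMDC against M-BMM, single arrays gave -1.14 to 0.31 for Cd33 and -0.50 to 0.10 for Cd14. Without both numbered 1 these were 0.31 and 0.10, and Cd14 was 0.0057 with the covariate. Emb was 0.079 in GM-BMDC against GM-BMM without both numbered 1. The cause was not tested. The replicate block changed 1 of the 21 calls of members, Siglecf against M-BMM. Pairing the M-BMM numbers crosswise left 2 higher and 2 lower members in both comparisons with GM-BMDC.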
